A study of Mus musculus with 2 samples.

Results

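The interleukin-1 and inflammasome genes were followed through single-cell transcriptomes of small intestinal macrophages from wild-type and Ccr2-deficient mice. The set holds 8 of the 27998 genes listed in both count matrices, chosen by symbol: the agonists Il1b and Il1a, the receptor antagonist Il1rn, the decoy receptor Il1r2, the sensor Nlrp3, the adaptor Pycard, the protease Casp1 and the cytokine Il18. All 8 were detected in both libraries. Cells were used when 200 or more genes were detected in them and mitochondrial transcripts made up no more than 10% of their UMIs, where a UMI is a unique molecular identifier that marks 1 captured transcript end.

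The wild-type library came from male C57BL/6J mice supplied by Janvier, and the knockout library from CCR2-/- mice of JAX strain 004999 that were bred in-house. Sex of the knockout animals and age of either group are not given in the sources used here, so supplier, breeding and genotype formed the same split and cannot be told apart. Each library pooled 3 to 4 intestines, from which mucus and epithelium had been removed before digestion with Liberase TL. Live CD45+ cells positive for CD11b, MHCII and CD64 and negative for CD3, TCRb, B220, SiglecF, Ly6C and Ly6G were sorted and run on the 10x Genomics 3' v2 chemistry. Wild-type cells were split over 2 lanes. Because each genotype is a single library, genotypes could not be compared by a test. Intervals below are exact 95% intervals that cover counting error only, and the spread between the lanes shows technical variation, since lanes are not biological replicates.

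Interleukin-1β and interleukin-1α act on the same receptor, and the product of Il1rn occupies that receptor without signalling, while the product of Il1r2 binds interleukin-1 without signalling. Interleukin-1β and interleukin-18 are made as inactive precursors. In the inflammasome a sensor such as NLRP3 recruits ASC, the product of Pycard, which in turn activates caspase-1 to cut both precursors. Transcripts of Il1b and Nlrp3 are known to be induced through NF-κB in a priming step. Intestinal macrophages are a known source of interleukin-1β in the gut, and enzymatic digestion of tissue is known to induce immediate-early genes such as Fos, Egr1 and Dusp1.

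In GRCm38 (GENCODE M21) the ligands and the antagonist lie on chromosome 2: Il1b at chr2:129364570-129371139 on the minus strand, Il1a at chr2:129299610-129309972 on the minus strand and Il1rn at chr2:24336853-24351494 on the plus strand. Il1r2 lies at chr1:40074079-40125231, Casp1 at chr9:5298517-5307265, Il18 at chr9:50554827-50581840 and Nlrp3 at chr11:59541568-59566956, all on the plus strand, and Pycard at chr7:127989708-127993867 on the minus strand. All 8 are protein-coding. Il1b overlaps Il1bos on the opposite strand, which was counted apart with 7 knockout and 28 wild-type UMIs. Il1r2 overlaps Gm16894 on the opposite strand, which had 66 and 206 UMIs. Il18 overlaps Bco2, with 114 and 121 UMIs, and Tex12 on the opposite strand. Whether reads of overlapping genes were kept apart by strand is not given in the sources used here.

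The 250 bases upstream of a start site are shown for 5 members that stand for the directions seen below: Il1b, Il1a and Nlrp3 with higher, Il1rn with similar and Pycard with lower levels in the knockout library. They are RefSeq sequences of GRCm38.p6, written 5′ to 3′ on the strand of the gene, and capitals mark motif matches on either strand. Searched were TATAAA, the PU.1 core GAGGAA, the AP-1 site TGANTCA that Fos-containing dimers bind, the cyclic AMP element TGACGTCA and the NF-κB consensus by name.
Il1b, chr2:129371140-129371389: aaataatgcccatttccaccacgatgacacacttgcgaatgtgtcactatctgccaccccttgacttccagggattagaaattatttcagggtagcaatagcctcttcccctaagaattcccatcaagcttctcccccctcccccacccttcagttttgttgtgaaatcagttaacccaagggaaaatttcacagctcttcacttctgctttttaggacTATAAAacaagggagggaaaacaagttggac
Il1a, chr2:129309973-129310222: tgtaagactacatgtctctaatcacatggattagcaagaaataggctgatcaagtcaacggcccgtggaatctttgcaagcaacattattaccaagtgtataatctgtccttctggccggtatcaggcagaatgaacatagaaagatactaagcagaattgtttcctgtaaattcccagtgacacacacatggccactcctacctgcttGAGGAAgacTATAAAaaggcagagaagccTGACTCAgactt
Il1rn, chr2:24336610-24336859: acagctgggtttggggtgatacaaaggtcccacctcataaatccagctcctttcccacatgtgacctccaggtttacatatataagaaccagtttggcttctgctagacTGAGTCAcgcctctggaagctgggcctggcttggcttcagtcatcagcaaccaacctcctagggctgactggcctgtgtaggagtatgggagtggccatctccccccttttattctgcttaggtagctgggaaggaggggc
Nlrp3, chr11:59541319-59541568: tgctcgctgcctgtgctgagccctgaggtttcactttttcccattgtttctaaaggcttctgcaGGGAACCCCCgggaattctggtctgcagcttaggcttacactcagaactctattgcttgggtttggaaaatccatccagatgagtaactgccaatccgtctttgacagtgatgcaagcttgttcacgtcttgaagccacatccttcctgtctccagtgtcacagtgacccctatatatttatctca
Pycard, chr7:127993868-127994117: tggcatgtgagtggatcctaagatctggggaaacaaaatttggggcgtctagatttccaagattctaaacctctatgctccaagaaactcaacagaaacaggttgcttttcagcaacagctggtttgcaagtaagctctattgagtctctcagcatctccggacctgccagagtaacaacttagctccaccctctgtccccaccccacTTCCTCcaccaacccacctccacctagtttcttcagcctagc
Il1b and Il1a both carried TATAAA, 31 and 32 bases before the start. Il1a also carried TGACTCA and GAGGAA, and Il1rn carried TGAGTCA. The Nlrp3 window shown held 1 match to the NF-κB consensus, on the opposite strand, and a window at another Nlrp3 start held 3 GAGGAA matches. The Pycard window held 1 match to GAGGAA on the opposite strand. Casp1 had 1 GAGGAA match as well, and the Il18 window had TATAAA on the opposite strand 175 bases before its start. None of the motifs was found in the Il1r2 window. That window lies at a RefSeq start 12014 bases from the gene start in GENCODE M21, and the bases upstream of the latter were not searched. Among 32851 RefSeq windows of the same length, 12.4% held TATAAA, 23.3% GAGGAA, 6.75% TGANTCA, 1.55% TGACGTCA and 3.9% the NF-κB consensus. Il1rn and Nlrp3 have more than 1 RefSeq start site, and counting of 3' ends does not tell which start a transcript used.

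Of 2774 deposited knockout cells 2612 were kept, and of 3054 wild-type cells 3016, of which 2109 came from lane 1 and 907 from lane 2. The knockout library was shallower, with a median of 2439 UMIs per cell against 6129 and 7265386 UMIs in all against 20678108. The wild-type lanes shared 5 barcodes with each other and 6 with the knockout library. Ccr2 itself stood at 6.88 counts per 1000000 UMIs (CPM) in the library labelled knockout and at 331 CPM in the wild type. Macrophage markers were abundant in both (10 of 10 listed genes detected, summed level 24919 CPM against 36314 CPM). Of all kept cells, 90.6% and 92.7% had C1qa, C1qb and C1qc together at 0.3% of UMIs or more and also passed limits on markers of other cell types. The libraries also differed in handling markers: the median share of Fos, Egr1 and Dusp1 in a cell's UMIs was 1.08% in the knockout library and 0.213% in the wild type. The 4 heat-shock genes ran the other way, with a sum of 659 CPM in the knockout library and 1504 CPM in the wild type (1530 and 1444 CPM by lane). Haemoglobin genes summed to 7429 CPM in the knockout library, 1078 CPM in lane 1 and 3.44 CPM in lane 2. Sums were also higher in the knockout library for fibroblast markers (194 against 21.6 CPM, all 4 detected), endothelial markers (159 against 51.9 CPM, all 3 detected) and resident macrophage markers (552 against 174 CPM, all 5 detected). The part of these differences in the levels below was not tested. All 7 listed monocyte markers were detected in both libraries, and their sum was 271 CPM in the knockout library and 832 CPM in the wild type (806 and 895 CPM by lane). Of 7 neutrophil markers S100a8, S100a9 and Ly6g were listed at 0 in both libraries. The sum of the others was 604 CPM in the knockout library and 404 CPM in the wild type (399 and 417 CPM by lane), most of it Mmp9.

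Il1b, the secreted agonist, was by far the most abundant member. Because each UMI counts 1 transcript end, levels can be compared between genes without scaling for length. Il1b stood at 2183 CPM (2149 to 2217) in the knockout library, 1167 CPM in wild-type lane 1 and 1202 CPM in lane 2. The lanes lay within 1.03-fold of each other, and the knockout level was 1.85-fold (1.82 to 1.89) that of the pooled wild type, a log2 ratio of 0.89 on the scale of CPM plus a pseudocount of 1. Depth did not remove the difference: among cells with 2000 to 4000 UMIs (1051 knockout, 713 wild-type) the levels were 2396 and 1371 CPM, a ratio of 1.75 (1.67 to 1.83). After every cell was thinned to 1000 UMIs, which left out 196 knockout cells and 1 wild-type cell, Il1b was found in 75.1% (73.3 to 76.8) of knockout and 51.3% (49.5 to 53.1) of wild-type cells. Without thinning these shares were 87.2% and 83.2%. The same thinned share in cells with T, B or plasma cell markers and little C1q was 33.3% of 36 knockout cells and 7.69% of 26 wild-type cells, with median depths of 2243 and 7878 UMIs, so part of the knockout share lies at the level that free RNA could give, and that part was not tested.

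Il1a, the agonist that is active without cleavage, was rare. It stood at 10.9 CPM (8.61 to 13.6) in the knockout library, 3.98 CPM in lane 1 and 7.2 CPM in lane 2, from 79, 58 and 44 UMIs. The lanes differed from each other by 1.81-fold (1.19 to 2.73), so that the knockout level was 2.73-fold that of lane 1 and 1.51-fold that of lane 2. Its mean level lay below the minimum of 10 CPM set for calling a fold, and its ratio varied with depth. It was 2.36 (0.344 to 102) in cells of 1000 to 2000 UMIs, where the wild type had 1 UMI, and 1.83 (0.779 to 4.78) at 2000 to 4000 UMIs, both with intervals that included 1. At 4000 to 8000 UMIs the levels were 17.3 and 3.89 CPM, a ratio of 4.44 (2.69 to 7.48).

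**Figure D1:**
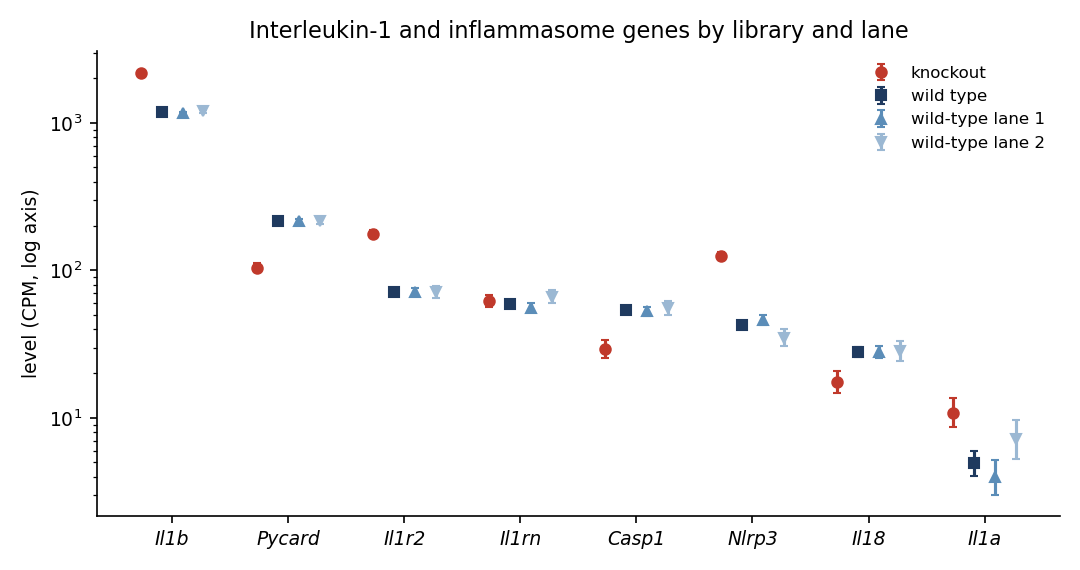
Level of each of the 8 genes in CPM (log axis) in the knockout library, the wild-type library and each wild-type lane, with exact Poisson intervals. Il1b stands above all other genes in every library, Nlrp3 and Il1r2 are higher in the knockout library than in both lanes, and Pycard, Casp1 and Il18 are lower.

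Il1rn, the receptor antagonist, had similar levels in the libraries over all kept cells. It stood at 62.5 CPM (56.9 to 68.5) in the knockout library, 55.9 CPM in lane 1 and 66.5 CPM in lane 2, so the knockout level fell between the lanes. The log2 ratio to the pooled wild type was 0.082, and it turned to -0.14 in cells of 2000 to 4000 UMIs, -0.088 against lane 2 alone and -0.11 with median-of-ratios scaling. After thinning to 1000 UMIs it was 0.25. Without cells that had a UMI of the monocyte gene Plac8 the ratio was 1.17 (1.04 to 1.32), which leaves out 1. The interval of the ratio over all kept cells (0.949 to 1.18) bounds any change by counting error alone. The thinned shares were 5.71% and 4.74% of cells, while the unthinned shares, 12.1% and 22.4%, ran the other way. After thinning, no lymphoid cell had a UMI. For 36 and 26 cells a limit of 3 counts allows shares of up to 8.33% and 11.5%, and the exact upper bounds are 9.74% and 13.2%. Without thinning, 2 of 36 and 1 of 26 lymphoid cells had an Il1rn UMI, so shares as low as those of Il1rn, Il1a, Casp1 and Il18 lie within what these few cells leave undecided.

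Il1r2, the decoy receptor, was higher in the knockout library in every depth class. It stood at 178 CPM (168 to 188) there, against 71.7 CPM in lane 1 and 71.2 CPM in lane 2, a ratio of 2.48 (2.3 to 2.68) and a log2 ratio of 1.30. In cells of 1000 to 2000, 2000 to 4000 and 4000 to 8000 UMIs the ratios were 1.71, 2.06 and 2.08. The thinned share was 15.7% in the knockout library and 7.6% in the wild type, and after thinning 0 of 36 and 0 of 26 lymphoid cells had a UMI, which by the limit of 3 counts allows shares of up to 8.33% and 11.5%.

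Nlrp3, the sensor, had the highest ratio of the 8 genes over all kept cells, and the size of that ratio moved with depth. Its ratio was also the highest after thinning to 1000 UMIs (log2 ratio 1.47, against 1.20 for Il1r2). In none of the depth classes below was it the highest. Nlrp3 stood at 126 CPM (118 to 134) in the knockout library, 45.9 CPM in lane 1 and 35.0 CPM in lane 2, a ratio of 2.94 (2.68 to 3.23). Lane 2 was 0.763 times lane 1, with an interval (0.651 to 0.892) that leaves out 1, so the lanes differed beyond counting error. The wild-type level fell from 108 CPM in cells of 1000 to 2000 UMIs to 71.9 CPM and 43.1 CPM in the next 2 classes, and the knockout level went from 153 CPM to 128 and 112 CPM. The ratio was therefore 1.42 (0.951 to 2.2), 1.78 (1.47 to 2.16) and 2.59 (2.19 to 3.05) in these classes, and in the first 2 it lay below that of Il1r2. Thinned shares were 11.5% and 4.34% of cells, with 5.56% and 0 of the lymphoid cells, of which the latter allows up to 11.5% by the limit of 3 counts.

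Pycard, the adaptor, and Casp1, the protease, went the other way. Pycard stood at 104 CPM (97.2 to 112) in the knockout library, 215 CPM in lane 1 and 218 CPM in lane 2, a ratio of 0.484 (0.447 to 0.523), and at 0.572 (0.487 to 0.671) in cells of 2000 to 4000 UMIs. Its lanes agreed to 1.01-fold. The thinned share was 8.28% of knockout and 17.5% of wild-type cells. In the lymphoid cells it was higher, 13.9% of 36 and 50.0% of 26, so these cells are no empty reference for Pycard, and the part of free RNA in the share of the other cells was not tested. Casp1 stood at 29.3 CPM (25.5 to 33.5) in the knockout library, 52.8 CPM in lane 1 and 55.5 CPM in lane 2, a ratio of 0.547. That ratio moved to 0.761 in cells of 2000 to 4000 UMIs, where the interval (0.551 to 1.05) included 1. It was 0.967 (0.442 to 2.41) at 1000 to 2000 UMIs and 0.604 (0.468 to 0.77) at 4000 to 8000 UMIs. From the shallowest to the deepest of these classes, wild-type Casp1 stood at 30.8, 36.0 and 51.1 CPM. Knockout Casp1 stood at 29.8, 27.4 and 30.8 CPM. Casp1 had a log2 ratio of -0.77 after thinning to 1000 UMIs. Its thinned shares were 2.69% and 4.64%, and 1 of 26 wild-type lymphoid cells (3.85%) had a UMI.

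Il18, the other caspase-1 substrate, stood at 17.6 CPM (14.7 to 20.9) in the knockout library, 27.9 CPM in lane 1 and 28.5 CPM in lane 2. The ratio was 0.627 (0.514 to 0.761) over all cells. In cells of 2000 to 4000 UMIs it was 0.742 (0.488 to 1.13), an interval that included 1 and rested on 50 and 47 UMIs. After thinning to 1000 UMIs the log2 ratio was -0.65, against -0.64 over all cells. Thinned shares were 1.53% and 2.59%.

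Of the 8 genes, 7 had a mean level of at least 10 CPM. Among these, 2 were higher by 2-fold or more in the knockout library (Nlrp3 and Il1r2), against 9.04% of all 7401 genes at that level, and 1 was lower (Pycard), against 3.12%. Between the wild-type lanes none of the 7 passed that fold, against 0.0405% of genes higher and 0.838% lower in lane 2. The median log2 ratio was 0.082 over the 7 members and 0.18 over all genes, so the libraries were shifted against each other. Median-of-ratios scaling, which sets that shift of 0.18 to 0, changed the background from 669 higher and 231 lower genes to 444 (6%) and 476 (6.43%). Under it Nlrp3 (1.35) and Il1r2 (1.11) stayed above a log2 ratio of 1, Pycard was at -1.23 and Casp1 at -1.03, and Il1b was at 0.70. In cells of 2000 to 4000 UMIs, where the median of all genes was 0.049, 1 of the 7 was higher by 2-fold (Il1r2) and none lower, against 5.86% and 2.66%. In C1q-gated cells 2 were higher (Nlrp3 and Il1r2) and none lower, with Pycard at -0.99, against 8.95% and 3.66%. The set thus had no common direction.

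**Figure D2:**
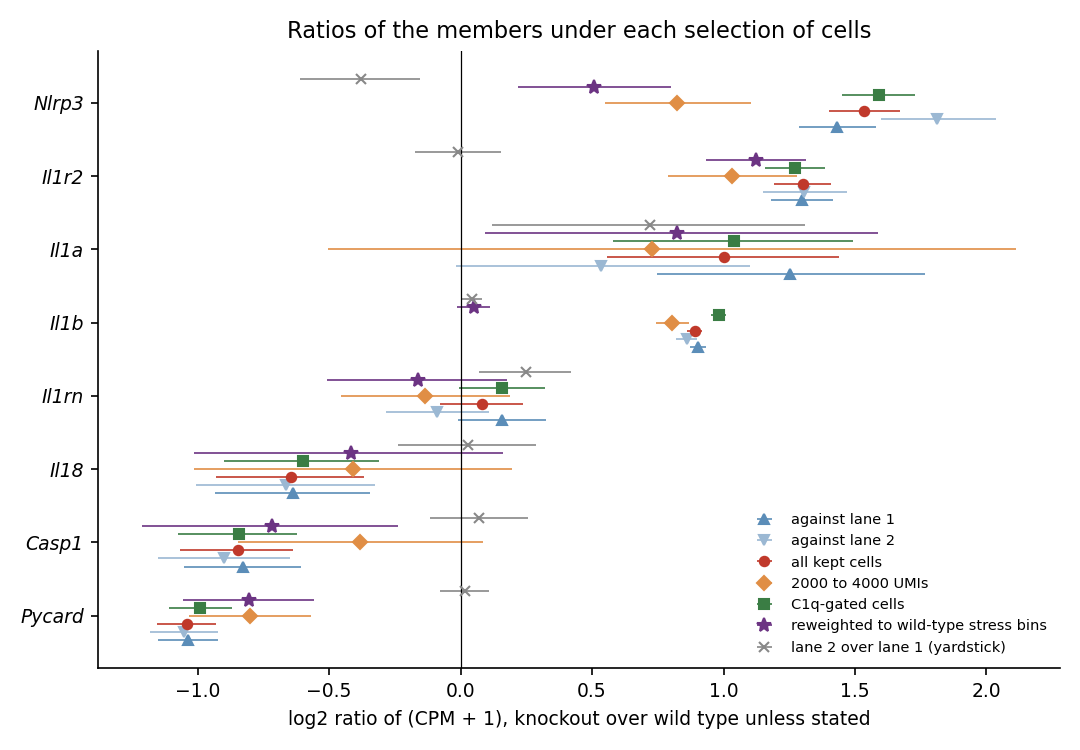
Log2 ratio of each gene (CPM plus 1), knockout over wild type, against each lane, over all kept cells, in cells of 2000 to 4000 UMIs, in C1q-gated cells and after reweighting to the wild-type stress bins, with lane 2 over lane 1 as the technical yardstick. Bars are 95% counting intervals, which for the reweighted value cover knockout counts only. Il1b falls to near 0 after reweighting. Reweighted values of Il1r2, Nlrp3 and Il1a stay above 0 and those of Pycard and Casp1 below it, with intervals that leave out 0.

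The remaining genes of the pathway were taken as a list of 49 receptors, sensors, effectors and signalling genes, of which 32 had a mean of at least 10 CPM. Of these 8 were higher by 2-fold or more and none lower, against 9.04% and 3.12% of all genes, and the median log2 ratio was 0.55. In cells of 2000 to 4000 UMIs the counts were again 8 and none, against 5.86% and 2.66%, and the median was 0.40, but Aim2 (1.05) and Relb (1.02) had taken the places of Txnip (0.68) and Rela (0.82). Over all cells 5 of the 8 were feedback genes or transcription factors of NF-κB: Tnfaip3, the A20 deubiquitinase, at 387 CPM against 59.5 CPM (log2 ratio 2.68), Nfkbiz at 1173 against 230 CPM (2.35), Nfkbia, the inhibitor IκBα, at 764 against 205 CPM (1.89), Rel at 316 against 113 CPM (1.47) and Rela at 68.7 against 33.8 CPM. Tnfaip3, Nfkbia and Nfkbiz are also known as rapidly induced genes, and the part of the higher stress share in their levels was not tested. The others were Casp4, the caspase that senses lipopolysaccharide in the cytosol, at 144 against 43.7 CPM (1.69), Txnip at 569 against 217 CPM (1.38) and Dfna5, which encodes gasdermin E, at 53.1 against 22.3 CPM (1.22). Gsdmd, the pore-forming substrate of caspase-1, stood at 32.2 against 59.2 CPM (-0.86), and Aim2, a sensor of cytosolic DNA that also uses the adaptor ASC, at 74.9 against 41.2 CPM (0.85). Il1r1, the signalling receptor, had 12 and 14 UMIs and Il1rap 34 and 79, so receptor transcripts for interleukin-1 other than the decoy were near the limit of detection. Naip genes are near-identical copies, and their counts may be divided between paralogues.

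The balance of agonist to antagonist was 34.9 Il1b UMIs per Il1rn UMI (31.8 to 38.4) in the knockout library and 19.96 (18.8 to 21.2) in the wild type, with 20.9 in lane 1 and 18.1 in lane 2. The knockout value lay above both lanes. In cells of 2000 to 4000 UMIs it was 38.4 (33.3 to 44.6) against 19.98 (16.9 to 23.8), and since it is taken within a library it does not depend on scaling. As a share, Il1b made up 97.2% (97.0 to 97.5) of Il1b plus Il1rn UMIs in the knockout library and 95.2% (94.96 to 95.49) in the wild type. Some thinned cells held both transcripts, 4.72% in the knockout library and 3.08% in the wild type. After thinning, Il1b was present in 82.6% (75.2 to 88.5) of 138 Il1rn-positive and 74.6% (72.8 to 76.4) of 2278 Il1rn-negative knockout cells, and in 65.0% (56.6 to 72.8) of 143 and 50.7% (48.8 to 52.5) of 2872 wild-type cells. The wild-type share among Il1rn-positive cells was 65.2% in lane 1 and 64.7% in lane 2. Intervals of the 2 shares overlapped in the knockout library but not in the wild type. Il1b UMIs per 1000 were 2.86 (2.58 to 3.15) in Il1rn-positive and 2.27 (2.21 to 2.33) in Il1rn-negative knockout cells. In the wild type they were 1.83 (1.62 to 2.07) and 1.19 (1.15 to 1.23).

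**Figure D3:**
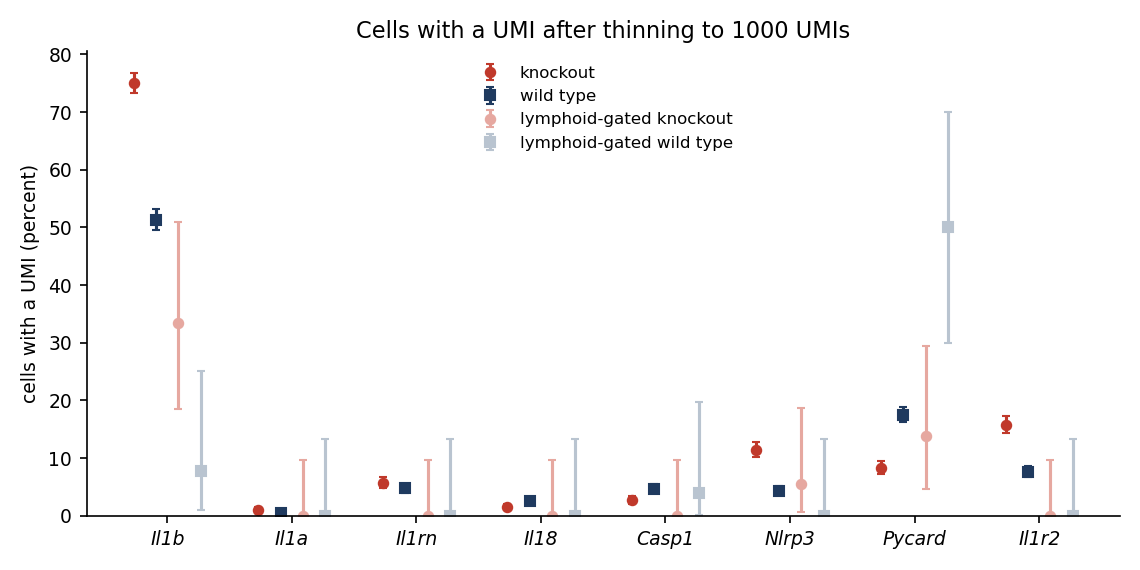
Percent of cells with at least 1 UMI of each gene after thinning every cell to 1000 UMIs, in the knockout and wild-type libraries and in their lymphoid-gated cells (36 and 26), with exact Clopper-Pearson intervals. Il1b was found in 75.1% and 51.3% of cells, and Pycard is the gene whose lymphoid share exceeds that of the whole library.

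Il1b followed the handling genes steeply in the wild type. When wild-type cells were split into 5 equal groups by the share of Fos, Egr1 and Dusp1 in their UMIs, Il1b stood at 399, 659, 975.4, 1500 and 2645 CPM from the lowest to the highest group. Lane 1 ran from 422 to 2579 CPM and lane 2 from 336 to 2827 CPM, and in cells of 2000 to 4000 UMIs the groups were at 360, 673, 1024, 1831 and 3002 CPM. In the pooled wild type the intervals of neighbouring groups did not overlap, and the order was the same in each lane. Knockout cells split in the same way by their own shares stood at 1772, 2255, 2383, 2254 and 2342 CPM, and in cells of 2000 to 4000 UMIs at 2126, 2682, 2559, 2260 and 2343 CPM. They rose from the lowest to the next group and had no steady trend above it. The knockout groups began at a median stress share of 0.402% and ended at 2.17%, whereas the wild-type groups ran from 0.0555% to 0.554%, so most of the wild-type range lay below the knockout range.

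Across cells of 2000 to 4000 UMIs, Spearman's rho of Il1b with the stress share was 0.55 in the wild type (713 cells) and 0.015 in the knockout library (1051 cells), as a description of cells that share a library. With a wider list of 12 immediate-early genes it was 0.63 and 0.085, and with heat-shock genes 0.079 and -0.13. By single genes, rho with Fos was 0.54 in the wild type and 0.10 in the knockout library, with Dusp1 0.38 and 0.045 and with Egr1 0.16 and -0.14.

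**Figure D4:**
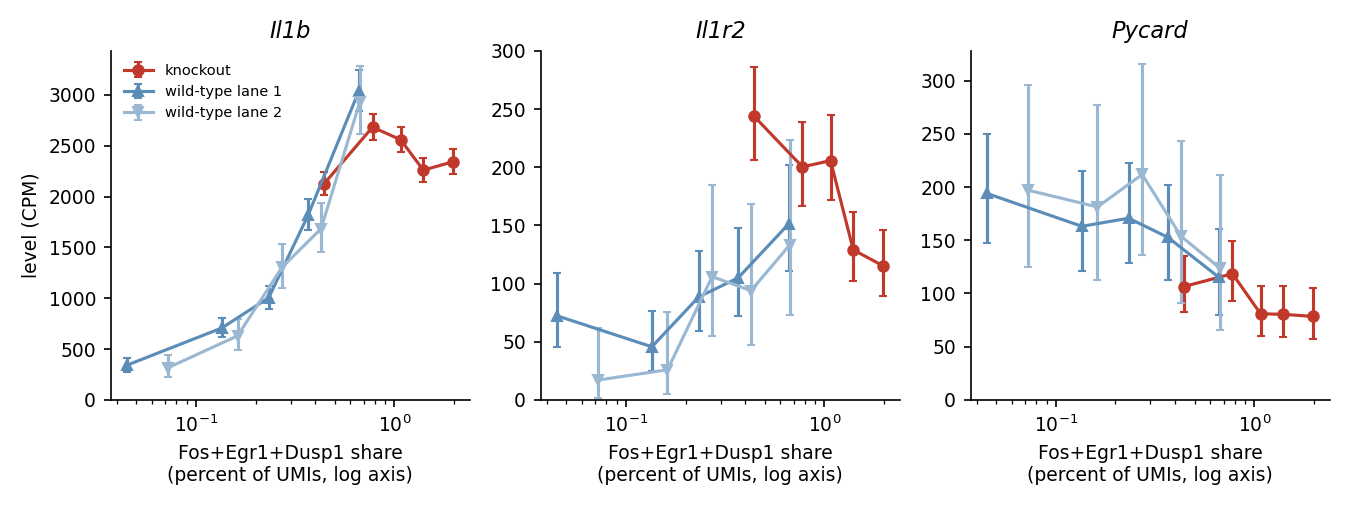
Levels of Il1b, Il1r2 and Pycard in CPM (linear axis) in 5 equal groups of cells of 2000 to 4000 UMIs ordered by their share of Fos, Egr1 and Dusp1 UMIs (log axis, median of each group), for the knockout library and each wild-type lane, with exact Poisson intervals. Wild-type Il1b climbs to 3038 CPM in lane 1 and 2934 CPM in lane 2. The lowest knockout group, at a median share of 0.443%, lies between the highest 2 groups of each lane (0.368% and 0.662% in lane 1, 0.427% and 0.670% in lane 2).

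Set side by side in 5 bins with common limits, set at the quintiles of both libraries pooled, Il1b stood at 348, 1360, 2259, 2305 and 2294 CPM in the knockout library and at 503, 1033, 1982, 3469 and 3654 CPM in the wild type. The ratios were 0.693 (0.557 to 0.852), 1.32 (1.19 to 1.45), 1.14 (1.09 to 1.19), 0.664 (0.637 to 0.693) and 0.628 (0.543 to 0.729). The knockout level was thus higher in 2 bins and lower in 3. Cells were unevenly spread, with 77, 105, 385, 936 and 1109 knockout and 1049, 1020, 741, 189 and 17 wild-type cells, and the last wild-type value rests on those 17 cells. The lowest bins of the knockout library were also of mixed make-up: 50.6% and 58.1% of their cells passed the C1q gate, against 93.4% and 93.6% in the wild type. Within the C1q gate the ratios were 0.922 (0.681 to 1.22), 1.54, 1.23, 0.687 and 0.668.

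When the knockout bins were weighted by the number of wild-type cells in each, Il1b stood at 1293 CPM against 1249 CPM in the wild type weighted in the same way, a log2 ratio of 0.050 (-0.012 to 0.11) in place of 0.89. Intervals of the weighted values cover knockout counts only. The bins with the most weight (1049 and 1020 wild-type cells) rest on only 77 and 105 knockout cells. In C1q-gated cells the weighted log2 ratio of Il1b was 0.23 (0.14 to 0.31) in place of 0.98, and with the wider list of 12 genes it was -0.38. The same weighting left Il1r2 at 1.12 (0.93 to 1.31), or 0.96 in C1q-gated cells, and took Nlrp3 from 1.54 to 0.51 (0.22 to 0.80). Pycard stood at -0.80 (-1.06 to -0.56) over all cells and -0.41 (-0.77 to -0.067) in the C1q gate. Casp1 stood at -0.72 (-1.21 to -0.24) over all cells but at -0.071 (-0.76 to 0.56) in the gate, and Il18 at -0.42 (-1.01 to 0.16) and 0.097. Since stress share, depth and genotype are the same split between these libraries, the weighting describes them and the parts of genotype and preparation cannot be told apart.

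Il1r2 and Nlrp3 were also higher at high stress share in the wild type, beyond counting error, and Pycard was lower. Over all wild-type cells Pycard went from 256 CPM (240 to 272) in the lowest of the 5 groups to 174 CPM (160 to 188) in the highest, and over all knockout cells from 115 CPM (99.3 to 132) to 74.6 CPM (58.5 to 93.8). In wild-type cells of 2000 to 4000 UMIs, Il1r2 stood at 55.1 CPM (35.0 to 82.7) in the lowest group and 149 CPM (114 to 191) in the highest, Nlrp3 at 52.7 CPM (33.1 to 79.9) and 134 CPM (101 to 174), and Pycard at 192 CPM (152 to 239) and 119 CPM (88.3 to 158), where the Pycard intervals overlapped. In the knockout library Il1r2 ran the other way, from 244 CPM (206 to 286) in its lowest group to 115 CPM (89.0 to 146) in its highest. Knockout Nlrp3 stood at 93.6 CPM (71.1 to 121) and 162 CPM (131 to 199). At common limits Il1r2 was higher in the knockout library in the middle 3 bins, with ratios of 2.98, 2.77 and 1.47 (1.2 to 1.82), and not detectably so in the lowest (0.783, interval 0.388 to 1.42). In the highest bin the wild type had only 2 Il1r2 UMIs.

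The agonist to antagonist balance was higher at high stress share in both libraries. Over the lowest 4 bins it went 12.1, 16.6, 27.3 and 35.3 Il1b UMIs per Il1rn UMI in the wild type and 18.4, 19.4, 29.3 and 37.1 in the knockout library, where it was 38.7 in the highest. At each of the first 4 bins the knockout value was the higher and the intervals of the libraries overlapped. Overlap of separate intervals is no test of a difference. Whether the difference in balance between whole libraries (34.9 against 19.96) remains within bins was therefore not tested. The lowest knockout bin (7.61 to 58.0) is the least precise. Taken alone, Il1rn was lower in the knockout library in bin 4, with a ratio of 0.631 (0.488 to 0.823). In the other bins the intervals of its ratio included 1.

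**Figure D5:**
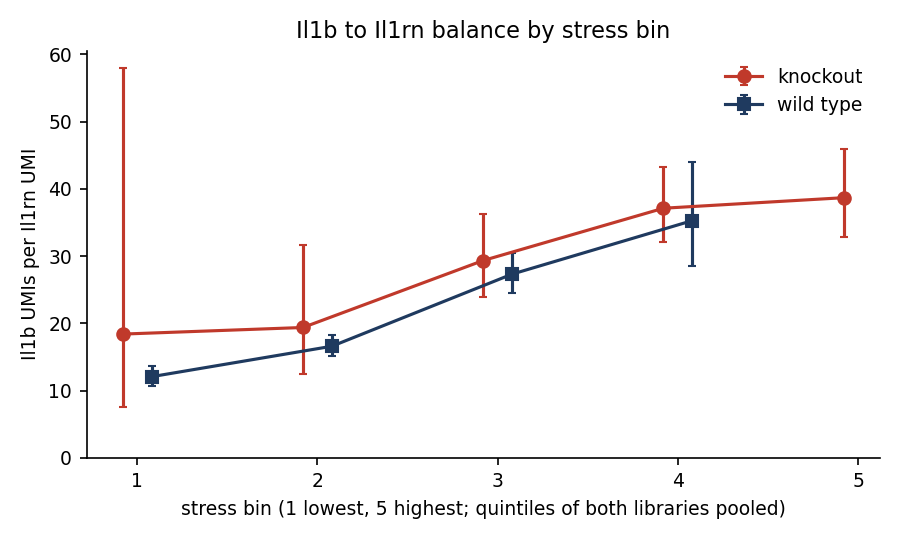
Il1b UMIs per Il1rn UMI (linear axis) in 5 bins of the Fos, Egr1 and Dusp1 share with common limits, for the knockout and wild-type libraries, with exact 95% intervals. The highest wild-type bin, with 17 cells, is left out of the plot. Both lines rise together from 12.1 and 18.4 in the lowest bin.

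Within cells of 2000 to 4000 UMIs, Il1b also differed between cells defined by single markers, of which a UMI at this depth marks only part of the expressing cells. Cells with a UMI of Cd163, a scavenger receptor of resident macrophages, had less Il1b than the rest in both libraries: 1598 against 2650 CPM in the knockout library and 535 against 1474 CPM in the wild type. In the wild type their median stress share was also lower, 0.153% against 0.249%, whereas in the knockout library it was higher, 1.38% against 0.994%. Cells with a UMI of Timd4, which marks long-lived macrophages, had 2631 against 2263 CPM in the knockout library and 1184 (1054 to 1325) against 1397 CPM (1343 to 1451) in the wild type. Cells with a UMI of Cd4, also on the list of resident macrophage markers, had more Il1b than the rest in both libraries. Their levels were 2599 against 2226 CPM in the knockout library and 1580 against 1279 CPM in the wild type. Cells with a UMI of Plac8, a gene of monocytes, had 1699 against 1306 CPM in the wild type, and 2323 (2128 to 2531) against 2402 CPM (2345 to 2460) in the knockout library, where they were 7.23% of cells against 16.4%. The 66 wild-type cells with both Ccr2 and Plac8 had 2361 CPM (2153 to 2584) and a median stress share of 0.398%, above the 0.240% of all wild-type cells at this depth. Leaving out every cell with a Plac8 UMI raised the log2 ratio of Il1b over all depths from 0.89 to 1.12, with 28.5% of wild-type and 8.58% of knockout cells removed. In cells of 2000 to 4000 UMIs the change was from 0.81 to 0.88.

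Among 7400 genes the 5 most like Il1b across cells of 2000 to 4000 UMIs, by the lower of the Spearman correlations in the 2 libraries, were Rgs1 (rho 0.42 in the knockout library, 0.45 in the wild type), Thbs1 (0.36 and 0.42), Psap (0.35 and 0.36), Tnfaip2 (0.41 and 0.33) and Ptgs2 (0.33 and 0.37). Rgs1 encodes a regulator of G protein signalling, Thbs1 the matrix protein thrombospondin-1, Psap the precursor of lysosomal saposins and Ptgs2 the inducible cyclooxygenase. Of the members, Il1r2 came at rank 17 (0.27 and 0.25), Il1rn at rank 80, Nlrp3 at rank 158 and Pycard at rank 6881 (-0.069 and -0.10). These correlations are across cells of 1 library each, which are not independent replicates.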

How the data were processed

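The authors deposited 1 matrix per library that holds raw UMI counts, whole numbers without normalisation. Cell Ranger 3.0.1 and mm10 are named in the submitters' processing notes, and how cells were called is not given in the sources used here. The 8 genes, the pathway list and the marker lists were chosen with earlier results of these data known, and the named genes were fixed by rule: all members, the pathway genes with the largest ratios (up to 10) and the 5 genes most like Il1b.

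A cell was kept if it had 200 or more detected genes and no more than 10% mitochondrial UMIs. Kept counts were summed per library and lane and scaled to 1000000 (CPM), and log2 ratios used a pseudocount of 1 CPM. Folds of 2 or more were called for genes with a mean of at least 10 CPM. Counts carry exact Poisson and shares exact Clopper-Pearson intervals at 95%. The calculations of log2 ratios and of the intervals of ratios were tested on simulated counts. The C1q gate (C1q genes at 0.3% of UMIs or more, T and B cell genes and epithelial and fibroblast genes each under 0.1%, plasma cell genes under 0.5% and haemoglobin under 1%) stands for macrophage-like cells. The lymphoid gate took cells with less C1q and either 2 or more UMIs of T and B cell genes at 0.05% or more, or plasma cell genes at 1% or more. Both gates were set after the data were seen, as was the alternative without Plac8-positive cells, and 117 cells of each library lay at 0.2 to 0.4% C1q. Doublets were kept in the main values, because Scrublet's automatic threshold marked 14 of 5628 cells (0.249%); removing the 98 highest-scoring cells was an alternative. Of the identifiers, 98.7% were found in GENCODE M21. Python 3.11.15, numpy 2.4.6, scipy 1.17.1, pandas 2.3.3, scanpy 1.11.5 and matplotlib 3.10.9 were used.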

Additional observations from a re-analysis of the deposited data

Results flagged for a closer look

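The difference in Il1b between the libraries had opposite signs inside and outside the C1q gate. Among cells of 2000 to 4000 UMIs the log2 ratio (knockout over wild type) was 0.88 in C1q-gated cells (994 knockout, 653 wild-type) and -0.43 in the other kept cells (57 and 60). The levels were 2458 and 1338 CPM inside the gate and 1282 (1113 to 1470) and 1730 CPM (1541 to 1935) outside it. The cells outside the gate are of several kinds, and the difference between both ratios was not tested.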

How the results depend on the processing

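The log2 ratio of Il1b stayed above 0 under all 12 alternatives, from 0.70 to 1.12: it was 0.70 with median-of-ratios size factors, 0.98 in C1q-gated cells, 0.86 against lane 2, 0.81 at 2000 to 4000 UMIs and 1.12 without Plac8-positive cells. Il1a (0.48 to 1.25), Nlrp3 (0.82 to 1.81), Il1r2 (1.03 to 1.32), Il18 (-0.83 to -0.41), Casp1 (-1.03 to -0.38) and Pycard (-1.23 to -0.80) kept their signs under their 12 alternatives each. Il1rn reversed to -0.11 with size factors, -0.028 with the stricter cell filter, -0.088 against lane 2 and -0.14 at 2000 to 4000 UMIs, and the cause was not tested. The Il1b share of Il1b plus Il1rn UMIs was 97.5% in the knockout library with the stricter cell filter, and in the wild type 94.8% in lane 2, 94.7% without Plac8-positive cells and 95.6% after thinning. At matched stress share the log2 ratio of Il1b, 0.050, reversed to -0.038 with 10 bins (a bin without wild-type cells left out) and to -0.38 with the wider list, and was 0.20 at 2000 to 4000 UMIs, 0.23 in the C1q gate and 0.27 without Plac8-positive cells, so its sign depends on these choices; the causes were not tested. Weighting by UMIs gave 0.090 and leaving out the highest bin 0.059, both chosen after seeing the data. The minimum on CPM does not alter a single gene's ratio. Few UMIs limit Il1a, Il18 and Casp1, and the ratio of Casp1 itself also moved with depth. At 2000 to 4000 UMIs the intervals of Il1a, Il18 and Casp1 included 1. At 4000 to 8000 UMIs those of Il1a and Casp1 left out 1, and that of Il18 (0.573 to 1.04) included it. After thinning to 1000 UMIs the log2 ratios of Il1a, Il18 and Casp1 were 0.95, -0.65 and -0.77. No paired analysis was possible because there is 1 library per genotype.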

Other observations

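Il1b was more evenly spread over knockout than over wild-type cells. After thinning to 1000 UMIs, the 10% of cells with the most Il1b held 30.3% of its UMIs in the knockout library, 45.1% in lane 1 and 47.8% in lane 2. Cells with 5 or more Il1b UMIs were 15.2% of knockout cells and 5.87% of wild-type cells (5.69% and 6.29% by lane). The ratio of variance to mean was 2.11 in the knockout library and 2.82 in the wild type. The mean itself was 2.30 Il1b UMIs per thinned cell in the knockout library and 1.22 in the wild type. Both the share held by the top 10% and the share with 5 or more UMIs depend on that mean, so neither separates spread from level.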
